A study of Mus musculus with 12 samples.

Results

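The Paneth cell enzymes and lectins are secreted or stress-linked products of the intestinal crypt base other than the defensins. The set was named by gene as Lyz1, Mmp7, Ang4, Itln1, Mptx1, Mptx2, Nupr1 and Habp2, and its members are the array probes whose platform symbol or alias is one of these names. A probe was found for 7 of the 8 genes, with 12 probes of the 45281 on the array, which name 19057 genes in all. No probe carried the Entrez number, symbol or alias of Mptx2, which is therefore named here without expression values.

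Paneth cells sit at the base of small-intestinal crypts beside the stem cells and release granules of antimicrobial enzymes, lectins and defensins into the crypt lumen. The healthy mouse colon has few or none of them, and its crypt base holds deep crypt secretory cells instead, which resemble goblet cells. Lysozyme 1 (Lyz1) breaks bacterial cell walls, matrilysin (Mmp7) cuts pro-defensins into their active form in mouse Paneth cells, angiogenin 4 (Ang4) is a ribonuclease with antimicrobial activity, intelectin 1 (Itln1) is a lectin that binds microbial sugars, and the mucosal pentraxins Mptx1 and Mptx2 belong to the family of C-reactive protein. Nupr1 is a small nuclear stress-response protein and Habp2 is a serine protease best known as a plasma protein from the liver.

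RNA was profiled on 12 Illumina mouse BeadChip arrays in 4 groups of 3, from C57BL/6 mice with intact Apc (Apc+/+) at 3 months of age. The groups are small intestine Cftr mutant, small intestine Cftr wild type, colon Cftr mutant and colon Cftr wild type. The mutants carry Cftr fl/fl with Villin-Cre, which removes the chloride and bicarbonate channel Cftr where the Villin promoter is active, the intestinal epithelium, and leaves it in other cell types. The genotype label of the wild types also names Villin-Cre beside Cftr+/+, whereas the growth protocol names it for the mutants alone. The small intestine samples were mid-duodenum with the villi removed, which keeps crypts, stroma and muscle, and the colon samples were distal colon epithelium, although one of the protocols names the whole tissue for colon. The series design text words the mutants as deficient in Apc as well, and the genotype field was followed. The design text gives 3 mice of each genotype, each giving both tissues, but nothing ties an array to a mouse by its number, so arrays of a genotype in the 2 tissues were treated as independent. The p-values cover only the variation among the arrays hybridised, which may be technical.

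Values are the deposited log2 intensities, quantile normalized by the authors. A probe counted as above background where it passed 7.78, a limit set 3 SD above the most frequent value of the table, and a probe below it carries only a bound. Differences are log2 differences from limma with their SE, and adjusted p-values are Benjamini-Hochberg values over 15909 features. A feature passed where the adjusted p was under 0.05. Levels of different probes were not set against each other, since probes bind with different strength.

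The labels were checked before the members were read. All 11 measured absorptive enterocyte markers and all 7 smooth muscle markers were higher in small intestine than in colon in both genotypes. Of 8 colonocyte markers, 6 were lower and 1 was higher. The enterocyte markers averaged 12.66 to 12.97 on the small intestine arrays, with all 11 above background on each. These samples thus held enterocyte RNA, and how far the villi were removed was not tested. The Cftr probe lay between 8.11 and 8.30 in small intestine of mutants and between 8.20 and 8.28 in small intestine of wild types, and between 7.94 and 8.21 in colon of mutants and between 7.95 and 8.13 in colon of wild types. The limma adjusted p of its mutant minus wild type difference was 0.9983 in small intestine and 0.9557 in colon. The position of this probe relative to the deleted part of Cftr is not known here, so it does not check the genotype labels, and mutant below means an array labelled so. On 3 small intestine arrays, mutants 1 and 2 and wild type 2, all 13 measured pancreatic acinar markers were above background with mean levels of 9.69, 11.1 and 11.26, against 8.01 on mutant 3 and 8.03 and 8.04 on the remaining wild types. Colon mutant 2 stood apart in Lyz1, alpha-defensins and erythrocyte markers, as given below.

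The upstream sequences of the mucosal pentraxins are printed first because Mptx1 gives the largest tissue difference toward the colon and the related Mptx2 has no probe. Those of Lyz1 and Nupr1 are shown as the upstream sequences of the member highest over the colon in small intestine and of the stress gene that was higher in colon. Each is the 250 bases before the gene start on the gene's strand in RefSeq, build GRCm38.p6, with matched motifs in capitals.
Mptx1 chr1:174330268-174330517 plus strand: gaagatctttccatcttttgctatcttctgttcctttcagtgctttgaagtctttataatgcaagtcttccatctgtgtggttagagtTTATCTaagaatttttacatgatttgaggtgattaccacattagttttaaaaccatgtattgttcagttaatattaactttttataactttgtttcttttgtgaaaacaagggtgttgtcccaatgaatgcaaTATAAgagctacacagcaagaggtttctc
Mptx2 chr1:173277757-173278006 minus strand: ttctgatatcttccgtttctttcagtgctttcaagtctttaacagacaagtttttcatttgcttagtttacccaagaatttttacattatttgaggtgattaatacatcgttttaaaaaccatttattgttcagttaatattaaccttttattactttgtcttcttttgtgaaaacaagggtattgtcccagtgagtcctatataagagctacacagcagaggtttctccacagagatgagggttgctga
Lyz1 chr10:117292869-117293118 minus strand: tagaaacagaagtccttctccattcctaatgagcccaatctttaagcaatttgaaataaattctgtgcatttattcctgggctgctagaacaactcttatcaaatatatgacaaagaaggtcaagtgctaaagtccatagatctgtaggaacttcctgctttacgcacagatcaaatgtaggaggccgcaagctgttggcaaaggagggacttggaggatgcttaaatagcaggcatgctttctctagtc
Nupr1 chr7:126625471-126625720 minus strand: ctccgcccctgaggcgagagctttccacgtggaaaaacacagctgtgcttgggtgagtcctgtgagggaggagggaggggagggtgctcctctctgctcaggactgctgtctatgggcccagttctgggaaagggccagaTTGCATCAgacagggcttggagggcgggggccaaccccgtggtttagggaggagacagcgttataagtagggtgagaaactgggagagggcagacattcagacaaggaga

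In the Mptx1 sequence the capitals mark TATAA, the core of the box bound by TBP, 29 to 25 bases before the start, and the reverse complement of AGATAA, the motif of GATA factors, 162 to 157 bases before it. In the Nupr1 sequence they mark the reverse complement of TGATGNAA, a composite motif of C/EBP and ATF factors, 110 to 103 bases before the start. Of 32851 mouse windows of the same length, 4.23% held TATAA on the gene's strand within 40 bases of the start, 9.99% held AGATAA on either strand and 3.45% held TGATGNAA on either strand. The other motifs searched, on either strand, were CTTTGAT of TCF/LEF factors, in 3.21% of windows, and CAAAGTCCA of HNF4, in 0.384%. Mmp7 has TATAA 26 to 22 bases and AGATAA 152 to 147 bases before its first annotated start, and the reverse complement of CTTTGAT 247 to 241 bases before its second. The windows of Lyz1, Ang4, Itln1, Habp2 and Mptx2 held none of the 5 motifs within the distance searched for each. None of these motifs overlap in the windows printed. A match is a description of letters and says nothing of binding.

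Mptx1 and Mptx2 share most of their upstream sequence. A global alignment gave 202 identical bases in 273 columns, 74.0%, whereas the other pairs of members gave 44.1% to 52.4%. Their longest shared runs are 2 of 21 bases each, which begin 105 and 69 bases before the start of Mptx1 and 126 and 89 bases before that of Mptx2. TATAA also occurs outside the 40 bases searched, beginning 49 bases before the start in both Mptx2 and Nupr1, 224 bases before it in Itln1, 123 in Mmp7 and 196 and 80 in Mptx1. The sequences of the array probes were not used here, so whether the Mptx1 probes also bind Mptx2 transcripts is not known.

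The comparison of tissues asks which of these crypt products were higher in the villus-depleted duodenum samples and which in the distal colon epithelium samples. The duodenal samples keep stroma and muscle and the colon samples are described as epithelium, so gut region and preparation cannot be told apart. Lyz1, Itln1, Habp2 and Mmp7 were higher in small intestine than in colon, Mptx1 and Nupr1 were lower there, and Ang4 did not pass the test. The same 6 genes passed in mutants and in wild types, 4 higher and 2 lower in each. The probes that stand for Mmp7 and Habp2 were not above background on any colon array. These genes entered the fit through small intestine arrays alone, which favours that direction in their calls and in their lack of overlap. Of all features, 39.6% passed in mutants (17.4% higher and 22.2% lower) and 41.4% in wild types (17.9% higher and 23.5% lower). The median difference of the 7 members was 0.55 in mutants and 0.22 in wild types, and that of all features was -0.02 in both. In mutants this median is the value of Ang4, which did not pass, and in wild types that of Mmp7, which was near background. For the same 6 genes the tissues did not overlap in either genotype, where 48.9% of all features did not overlap in mutants (21.6% higher and 27.3% lower) and 54.1% in wild types (23.1% higher and 31% lower). The differences of mutants and of wild types share no arrays. In these bulk samples, fewer cells of a type and less RNA per cell cannot be told apart.

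**Figure D1:**
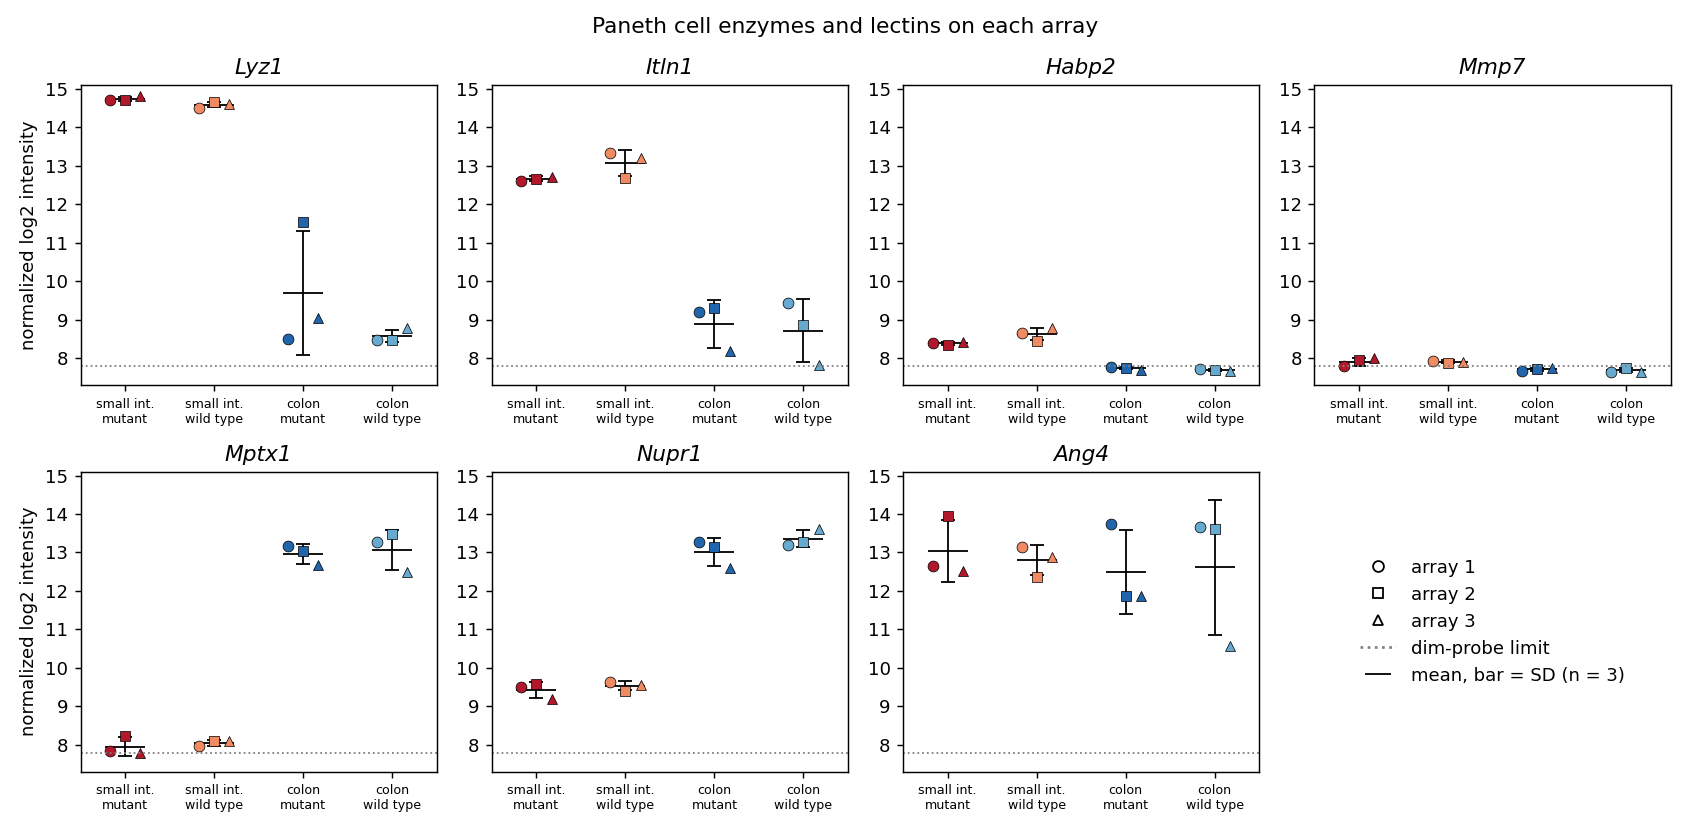
Normalized log2 intensity (vertical axis) of the probe that stands for each gene, on 3 arrays of each tissue and genotype, with the mean (line), the SD (bar, n = 3) and the dim-probe limit of 7.78 (dotted). Lyz1 and Itln1 sit high in small intestine and low in colon, Mptx1 and Nupr1 the reverse, and Ang4 is high in all 4 groups, while levels in different panels are not comparable.

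Lyz1, on chromosome 10 at 117287795 to 117292868, is read by 3 probes. The probe with the highest mean, ILMN_2878071, gave 14.70, 14.70 and 14.80 in small intestine of mutants and 14.51, 14.65 and 14.60 in small intestine of wild types. The same probe gave 8.49, 11.53 and 9.05 in colon of mutants and 8.48, 8.48 and 8.77 in colon of wild types. Every small intestine array lay above every colon array, and 1 colon array, mutant 2, lay far above the other colon arrays. Small intestine exceeded colon by 5.05 ± 0.59 in mutants, 33.0-fold (limma adjusted p = 6.169e-05), and by 6.01 ± 0.59 in wild types, 64.5-fold (limma adjusted p = 1.47e-05). Without colon mutant 2 the difference in mutants was 5.97 (limma adjusted p = 4.23e-09). The other probes gave log2 differences of 4.98 and 4.82 in mutants and 6.12 and 5.53 in wild types. On ILMN_1247933, which was not above background on any colon array of the wild types, small intestine was at least 67.1-fold higher in wild types. In small intestine the leading probe lies near the highest values of the table, so the size of its differences there may be compressed.

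Itln1, on chromosome 1 at 171518123 to 171535325, followed the same tissue pattern. Its probe gave 12.60, 12.66 and 12.72 in small intestine of mutants and 13.33, 12.68 and 13.20 in small intestine of wild types. In colon it gave 9.20, 9.29 and 8.18 in mutants and 9.44, 8.86 and 7.83 in wild types, above background on all 6 arrays but spread over more than a log2 unit in each genotype. The tissues did not overlap. Small intestine exceeded colon by 3.77 ± 0.39 in mutants, 13.7-fold (limma adjusted p = 2.503e-05), and by 4.36 ± 0.39 in wild types, 20.6-fold (limma adjusted p = 7.378e-06).

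Mmp7, on chromosome 9 at 7692090 to 7699585, was near the background in every group. Its only probe gave 7.79, 7.94 and 7.99 in small intestine of mutants and 7.93, 7.86 and 7.91 in small intestine of wild types, all just above the limit. In colon it gave 7.67, 7.72 and 7.73 in mutants and 7.65, 7.74 and 7.65 in wild types, all not above background. The fitted difference was 0.20 ± 0.05 in mutants (limma adjusted p = 0.008446) and 0.22 ± 0.05 in wild types (limma adjusted p = 0.004848). Against the limit this is at least 1.09-fold in mutants and at least 1.08-fold in wild types.

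Habp2, on chromosome 19 at 56287109 to 56320820, was low but detected in small intestine. ILMN_2644936 gave 8.38, 8.34 and 8.42 in small intestine of mutants and 8.65, 8.45 and 8.77 in small intestine of wild types. It was not above background on any colon array, at 7.70 to 7.76 in mutants and 7.67 to 7.71 in wild types. Small intestine was at least 1.51-fold higher in mutants (limma adjusted p = 2.363e-05) and at least 1.79-fold higher in wild types (limma adjusted p = 1.312e-06). A second probe, ILMN_2979190, was at least 1.28-fold higher in mutants, and in wild types it differed by 0.58 with 1 of 3 colon arrays above background. The remaining probe, ILMN_1234797, was above background on 2 arrays, both small intestine of wild types, and did not enter the fit.

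Mptx1 had the largest difference toward the colon. This gene, on chromosome 1 at 174330518 to 174332877, is read by ILMN_1225061, which gave 7.84, 8.24 and 7.79 in small intestine of mutants and 7.96, 8.10 and 8.11 in small intestine of wild types. The same probe gave 13.18, 13.03 and 12.68 in colon of mutants and 13.26, 13.47 and 12.48 in colon of wild types. The small intestine arrays were all just above background and the colon arrays all far above it. Small intestine minus colon was -5.01 ± 0.23 in mutants (32.2-fold lower, limma adjusted p = 5.662e-08) and -5.01 ± 0.23 in wild types (32.3-fold lower, limma adjusted p = 4.852e-08). The second probe, ILMN_2980898, gave -4.37 in mutants and -4.35 in wild types.

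Nupr1, on chromosome 7 at 126623246 to 126625470, was expressed well above background in both tissues and was higher in colon. Its probe gave 9.51, 9.59 and 9.20 in small intestine of mutants and 9.64, 9.41 and 9.55 in small intestine of wild types. In colon it gave 13.28, 13.14 and 12.60 in mutants and 13.20, 13.28 and 13.60 in wild types. Every small intestine array lay far below every colon array. Small intestine minus colon was -3.57 ± 0.18 in mutants (11.9-fold lower, limma adjusted p = 9.034e-08) and -3.83 ± 0.18 in wild types (14.2-fold lower, limma adjusted p = 4.55e-08).

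Ang4, on chromosome 14 at 51763892 to 51773590, was high in both tissues and varied within groups. It gave 12.66, 13.96 and 12.51 in small intestine of mutants and 13.15, 12.37 and 12.88 in small intestine of wild types. In colon it gave 13.74, 11.86 and 11.88 in mutants and 13.65, 13.60 and 10.58 in wild types. The lowest and the second-highest of all 12 values were both colon arrays, and the tissues overlapped in each genotype. Small intestine minus colon was 0.55 ± 0.81 in mutants (limma adjusted p = 0.6492) and 0.19 ± 0.81 in wild types (limma adjusted p = 0.886). With these standard errors, a difference of a log2 unit in either direction would not have passed. Without colon wild type 3 the difference in wild types was -0.83.

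**Figure D2:**
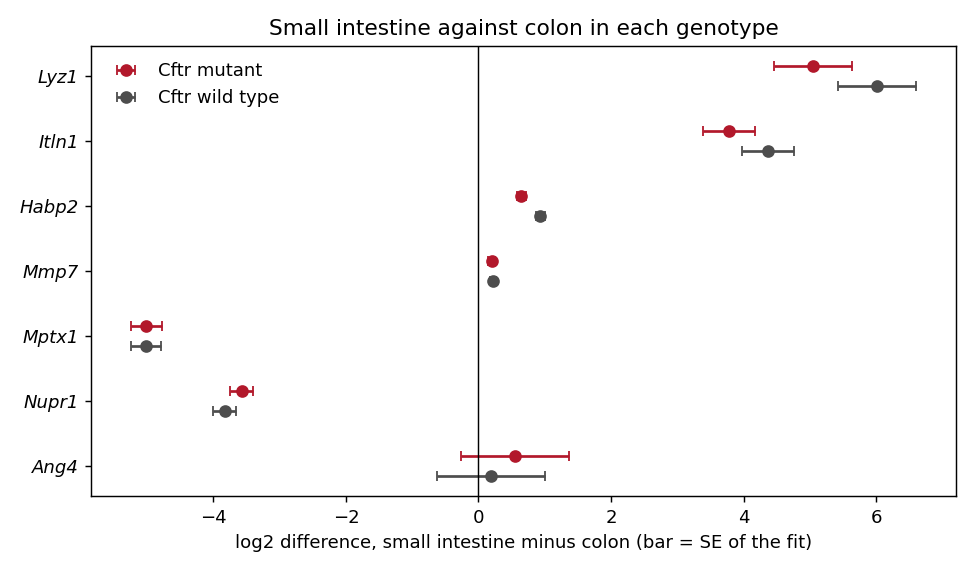
Small intestine minus colon log2 difference (horizontal axis) of each measured gene in Cftr mutants and in Cftr wild types, with the SE of the limma fit as bars. Lyz1, at 5.05 in mutants and 6.01 in wild types, and Mptx1, at -5.01 in both, mark the ends, and the bars of Ang4 span 0 in both.

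For 6 of the 7 genes the 4 groups fell into a high and a low tissue. In Mptx1, Nupr1, Itln1 and Mmp7 the mutant and wild type ranges overlapped within each tissue. For Lyz1 and Habp2 they overlapped in colon and lay apart in small intestine on the leading probe, as described for the genotype comparison. The 4 ranges of Ang4 all overlapped their neighbours.

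Lists of related genes gave the setting of the tissue differences. All 6 measured Paneth alpha-defensins of 19 listed were higher in small intestine, with a median of 4.43 in mutants and 5.74 in wild types, sizes that depend on the background level since at most 3 of the 6 were above it on each colon array other than mutant 2. Of 20 measured genes of Paneth lineage, niche and granules, 6 were higher and 6 lower in mutants and 4 were higher and 8 lower in wild types, and the median was 0.01 in mutants and -0.01 in wild types. Spdef, a transcription factor of secretory cell maturation, was among the lower ones, with a difference of -1.78 in mutants and -2.04 in wild types. So was Sox9, a crypt-base transcription factor that mouse Paneth cells need, with -1.42 in mutants and -1.48 in wild types. Reg3g, a bactericidal C-type lectin, was higher by 2.30 in mutants (limma adjusted p = 0.02017). In wild types it differed by 1.45 and did not pass (limma adjusted p = 0.1162). Clps, which encodes the pancreatic lipase cofactor colipase, was higher by 1.60 in mutants and 1.57 in wild types. On wild types 1 and 3, where pancreatic acinar markers were low, Clps was at 12.74 and 12.68, above the highest colon value of 11.49, and on mutant 3 it was at 11.47.

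Of 7 measured genes of deep crypt secretory cells, 1 was higher and 4 lower in small intestine of mutants, and 1 was higher and 5 lower in wild types. The lists are not separate: Spdef, Dll1, Egf and Cd24a are also in the Paneth lineage list, and Spdef is in the goblet list. Cd24a and Egf lay close to the limit on every array, at 7.70 to 7.85 and 7.72 to 7.98. Kit, a receptor tyrosine kinase that marks these cells in mouse colon, differed by -1.35 in mutants and -1.52 in wild types. Cd44, a crypt-base adhesion receptor that binds hyaluronan, differed by -0.48 in mutants and -0.57 in wild types. Dll1, a Notch ligand of secretory progenitors, was the higher one, by 0.18 in mutants and 0.25 in wild types. Goblet markers, 15 in number, had 10 lower and 1 higher in mutants, and 12 lower and 1 higher in wild types. Mptx1 and Nupr1 were thus lower in small intestine in the same comparisons in which most goblet markers were lower, and the part of cell makeup in their differences was not tested.

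Nupr1 is induced by amino acid and endoplasmic reticulum stress through Atf4 in cultured cells, and 12 genes of that response were all measured. In mutants 3 were higher and 1 lower in small intestine, and in wild types 3 were higher and 2 lower. Trib3, a pseudokinase target of Atf4, was at least 2.04-fold higher in wild types, where no colon array was above background, and differed by 0.86 in mutants, where 1 of 3 was. Another Trib3 probe, ILMN_1244279, lay near the limit and gave at least 1.02-fold in wild types and at least 1.03-fold in mutants. Atf4 itself was higher by 0.61 in mutants and 0.48 in wild types. Ddit4, an inhibitor of mTORC1, was lower, with a difference of -0.59 in mutants and -0.53 in wild types. The median of the 12 was 0.01 in mutants and -0.03 in wild types.

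The close relatives of the members could share probe binding with them, and each was read by probes of its own. Where a relative has several, differences are those of the probe with the highest mean. Lyz2, the lysozyme of macrophages, was higher in small intestine by 1.67 in mutants and 1.83 in wild types. Its probe ILMN_2939681 averaged 8.46 in small intestine of either genotype, against 7.8 in colon of mutants and 7.77 in colon of wild types. Its probe ILMN_2766780 was not above background on any array. Of 11 measured macrophage markers, Lyz2 among them, 10 were higher in each genotype and 1, Cd14, was lower, with differences of -1.34 in mutants and -1.27 in wild types. Ang, the founding angiogenin, differed by -0.98 in mutants and -0.93 in wild types and so was lower in small intestine, at 9.60 to 9.85 in small intestine of mutants and 10.56 to 10.95 in colon of mutants. The other Ang probe, ILMN_2683113, stayed near the limit, with group means of 7.761 to 7.845. Mmp10, a stromelysin, was not above background on any colon array and was at least 3.94-fold higher in small intestine of mutants and at least 5.07-fold higher in wild types. Mmp13, an interstitial collagenase, was at least 1.85-fold higher in mutants, and in wild types it differed by 1.36 with 1 of 3 colon arrays above background. The other Mmp13 probes stayed near or below the limit in both tissues, with group means of 7.721 to 7.825. Mmp14, a membrane-bound collagenase, did not pass in either. Cross-binding between Lyz1 and Lyz2, or between Ang4 and the other angiogenins, was not tested.

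The genotype comparison in small intestine asks whether loss of epithelial Cftr changed these products in the villus-depleted duodenal wall. No member passed (limma adjusted p over all features), and 1 of 7, Habp2, had an unadjusted p under 0.05. Of all features, 0.679% passed (0.17% higher and 0.509% lower) and 8.17% had an unadjusted p under 0.05. The median of the 7 members was -0.10, the value of Nupr1 itself, against 0.00 for all features. Groups did not overlap for 1 member with mutants higher, Lyz1, and for 1 with mutants lower, Habp2, where 6.73% of all features were without overlap in the first direction and 6.77% in the second, 13.5% in all.

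Habp2 was lower on each of the 3 mutant arrays than on any wild type array of small intestine, at 8.34 to 8.42 in mutants against 8.45 to 8.77 in wild types. The difference was -0.24 ± 0.07 (limma adjusted p = 0.2284, unadjusted 0.004544). The second probe gave 8.19, 8.12 and 8.11 in mutants and 8.48, 8.12 and 8.40 in wild types, a difference of -0.19 ± 0.07 (limma adjusted p = 0.5293). The call depends on 1 array: without wild type 2 the difference was -0.33 and passed (limma adjusted p = 0.01069). Wild type 2 is one of the arrays high in pancreatic acinar markers, and without all 3 such arrays the difference was -0.29 (limma adjusted p = 0.06745).

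The 3 Lyz1 probes did not agree on a direction in small intestine. Mutants had the lower mean on ILMN_1247933 and ILMN_2736867 and the higher mean on ILMN_2878071 alone. That probe lies near the highest values of the table there, so the size of its difference may be compressed. On ILMN_2878071 mutants were higher, at 14.70 to 14.80 against 14.51 to 14.65 in wild types, a difference of 0.15 ± 0.59 (limma adjusted p = 0.9983). That SE comes from the spread of all 4 groups and is set mostly by colon mutant 2: the same difference had an SE of 0.13 without that array (limma adjusted p = 0.9508) and 0.05 on the 6 small intestine arrays alone (limma adjusted p = 0.4923). On ILMN_1247933 mutants were lower, at 13.70, 12.76 and 13.48 against 13.93, 13.73 and 13.89 in wild types, a difference of -0.54 ± 0.41 with the same shared spread (limma adjusted p = 0.9585). On ILMN_2736867 mutants gave 12.83, 12.83 and 13.11 and wild types 13.42, 13.08 and 13.37, a difference of -0.36 ± 0.26 (limma adjusted p = 0.9394). The SD of ILMN_2736867 was 0.16 in small intestine of mutants and 0.18 in wild types, against 0.67 in colon of mutants, so colon widens this SE too. No SE without colon mutant 2 is given here for ILMN_1247933 and ILMN_2736867. The first probe and ILMN_1247933 each separated the groups without overlap, in opposite directions, and none passed the test. With the mean of the probes as the gene's value, the difference was -0.25.

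**Figure D3:**
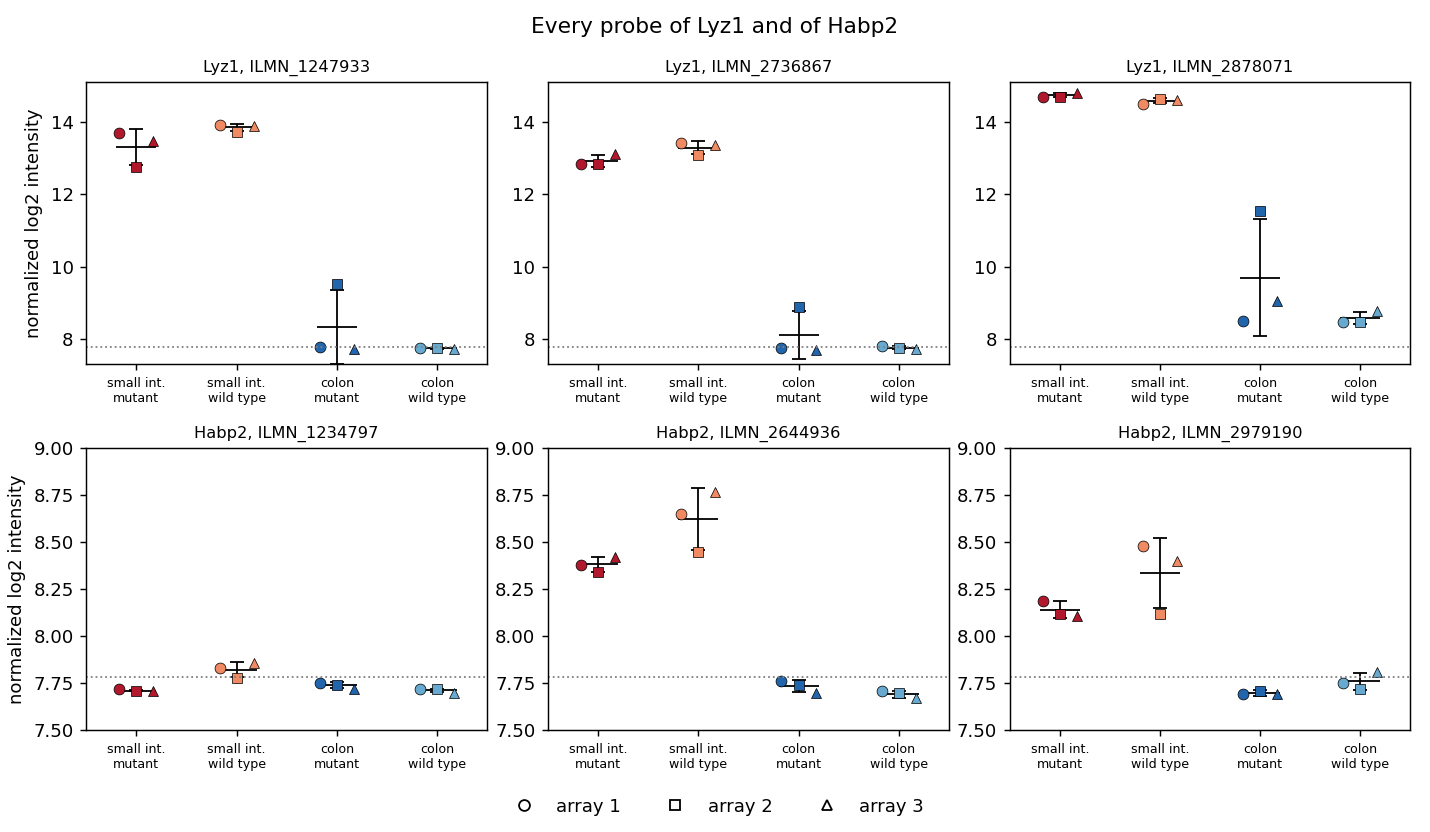
Normalized log2 intensity (vertical axes, on a different scale for each gene) of every Lyz1 probe (top row) and every Habp2 probe (bottom row) by tissue and genotype, with the mean, the SD (n = 3) and the dim-probe limit (dotted). In small intestine, mutants sit at 14.70 to 14.80 against 14.51 to 14.65 in wild types on ILMN_2878071, and at 12.76 to 13.70 against 13.73 to 13.93 on ILMN_1247933.

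The other members differed by less than their errors or close to them in small intestine. Itln1 was at -0.41 ± 0.39, and its wild type 2 value of 12.68 lay inside the mutant range of 12.60 to 12.72, while wild types 1 and 3 lay above it. Ang4 differed by 0.24 ± 0.81, Mptx1 by -0.10 ± 0.23, Nupr1 by -0.10 ± 0.18 and Mmp7 by 0.01 ± 0.05. Their limma adjusted p-values lay at 0.9811 for Itln1 and 0.9983 for the others.

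Few related genes passed the test in small intestine. Of the 6 measured alpha-defensins 1, Defa39, fell, by 0.90 ± 0.15 (limma adjusted p = 0.02974), and the median of the 6 was -0.38. Defa23 differed by -1.08 ± 0.22 (limma adjusted p = 0.07475). With limma none of the 20 genes of Paneth lineage, niche and granules passed, 10 of them were positive, and 1 had an unadjusted p under 0.05. That one, Reg3g, a bactericidal C-type lectin, gave 12.84, 11.90 and 13.27 in mutants and 10.55, 10.02 and 10.45 in wild types, a difference of 2.33 ± 0.68 (limma adjusted p = 0.2581). No gene of the deep crypt secretory, goblet or Nupr1 stress lists passed with limma, where 0 of 7, 5 of 15 and 2 of 12 had an unadjusted p under 0.05. Of the close relatives, Mmp13 lay nearest the threshold, at -0.44 ± 0.09 (limma adjusted p = 0.07389). That value is from its leading probe, and its other probes stayed near or below the limit.

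In colon epithelium, no member passed between mutants and wild types, and none had an unadjusted p under 0.05. Of all features, 0% passed and 5.1% had an unadjusted p under 0.05, with a lowest limma adjusted p of 0.6299. Mmp7 and the leading Habp2 probe were not above background on any colon array, so no difference was measured for them. Of the other Habp2 probes, ILMN_2979190 was above background on 1 colon array, wild type 3, at 7.81. The median of the 7 members was 0.02, the value of Mmp7 itself, against 0.00 for all features. No member's groups were free of overlap, where 8.87% of all features were, 4.65% higher and 4.22% lower. With limma no gene of the alpha-defensin, Paneth lineage, deep crypt secretory, goblet or Nupr1 stress lists passed in colon either, and 0 of 6, 2 of 20, 1 of 7, 1 of 15 and 0 of 12 had an unadjusted p under 0.05.

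Lyz1 had the largest difference of the members in colon, 1.11 ± 0.59 (limma adjusted p = 0.9381), and it rests on 1 array. Colon mutant 2 gave 11.53, 9.51 and 8.88 on the 3 probes. The other 5 colon arrays gave 8.48 to 9.05 on ILMN_2878071, 7.72 to 7.78 on ILMN_1247933 and 7.69 to 7.80 on ILMN_2736867. Without mutant 2 the difference was 0.19 (limma adjusted p = 0.8956).

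On the same array the alpha-defensins were high too. Their mean was 10.11 on colon mutant 2, with all 6 above background, against 7.98 and 7.72 on mutants 1 and 3 and 7.71 to 7.97 on the wild types. Defa20 gave 13.47 there and at most 8.32 on the other colon arrays. Erythrocyte markers averaged 12.0 on colon mutant 2 and 9.97 to 10.79 on the other 5, and absorptive enterocyte markers averaged 8.56 on colon mutant 2 and 8.03 to 8.16 on the other 5. Immediate early genes averaged 9.59 on it and 9.09 to 9.28 on the other 5, whereas goblet markers, at 11.15, lay inside the range of the others, 11.12 to 11.30. Itln1 at 9.29, Mptx1 at 13.03 and Ang4 at 11.86 on colon mutant 2 lay inside the range of the other colon arrays. Habp2 and Mmp7 were not above background on it. What makes colon mutant 2 differ was not tested.

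**Figure D4:**
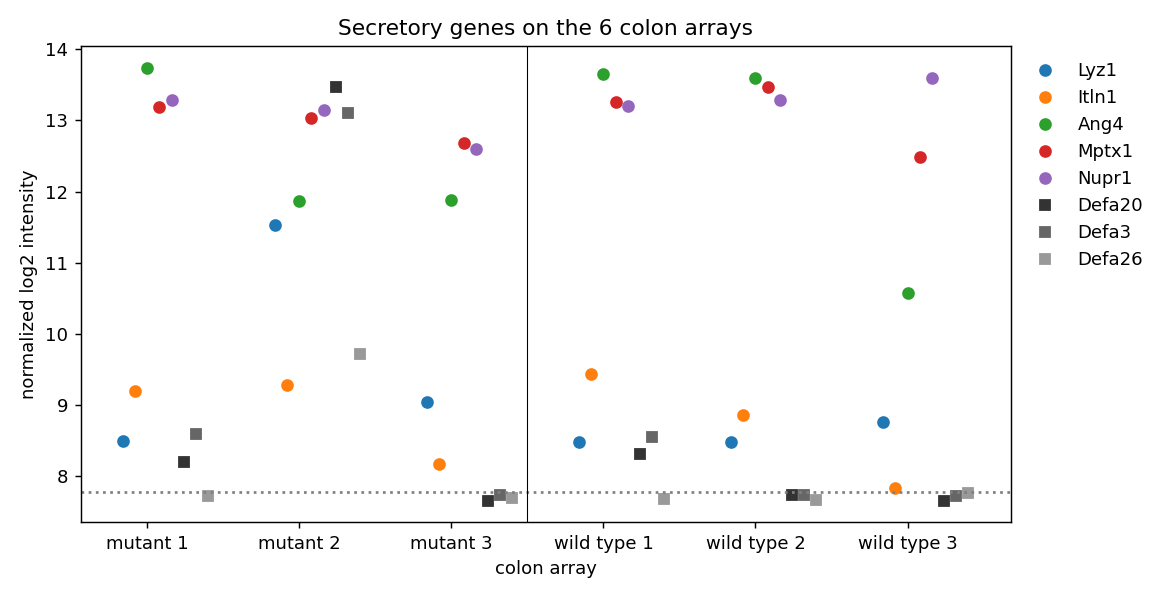
Normalized log2 intensity (vertical axis) of 5 members (circles) and 3 alpha-defensins (squares) on the 3 mutant and 3 wild type colon arrays, with the dim-probe limit (dotted). On mutant 2 Lyz1 reaches 11.53 and Defa20 13.47, while Itln1 and Mptx1 stay within the range of the other arrays.

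The remaining colon differences were small or uneven. Nupr1 differed by -0.35 ± 0.18 (limma adjusted p = 0.9381, unadjusted 0.07179), with the mutant 1 and 2 values of 13.28 and 13.14 close to the wild type values of 13.20 and 13.28, and with mutant 3 lowest at 12.60 and wild type 3 highest at 13.60. Ang4 differed by -0.12 ± 0.81, and its low arrays were mutants 2 and 3 and wild type 3. Itln1 differed by 0.18 ± 0.39 and Mptx1 by -0.10 ± 0.23. On colon mutant 3 and wild type 3, Itln1 and Mptx1 both took their lowest values of that genotype, which were 8.18 on mutant 3 and 7.83 on wild type 3 for Itln1 and 12.68 on mutant 3 and 12.48 on wild type 3 for Mptx1.

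**Figure D5:**
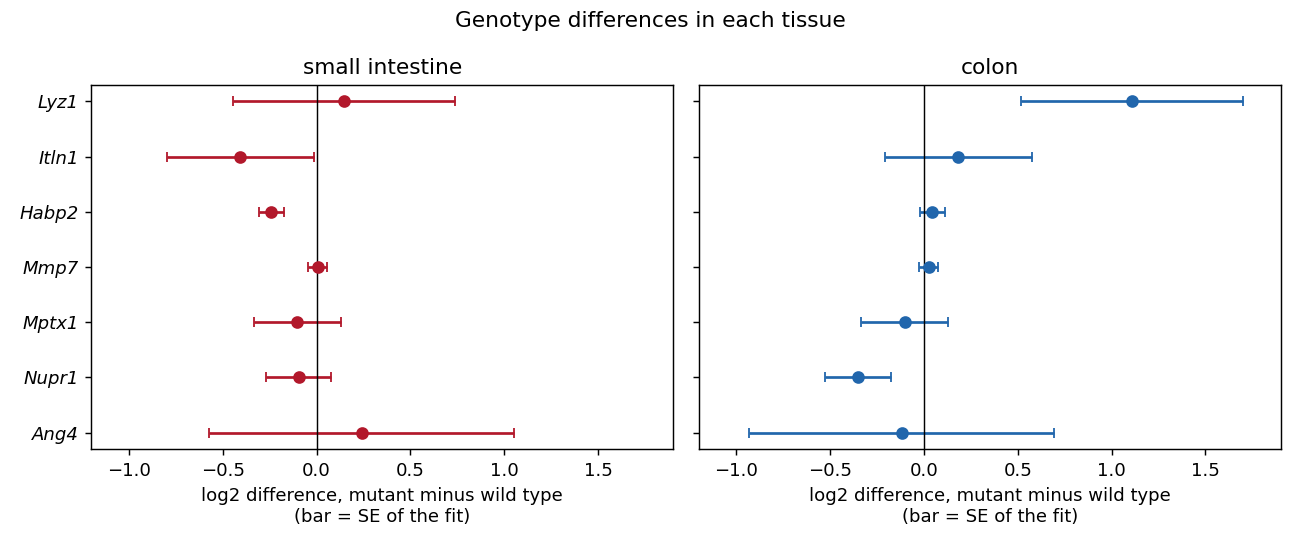
Mutant minus wild type log2 difference (horizontal axis) of each measured gene in small intestine (left) and colon (right), with the SE of the limma fit as bars. Each gene has one SE for both tissues, widest for Ang4 (SE 0.81) and for Lyz1 (SE 0.59), where colon mutant 2 sets most of it, and Habp2 in small intestine sits at -0.24 with a short bar.

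The difference between the genotype effects of small intestine and colon was tested for each member, and none passed. One member, Habp2, had an unadjusted p under 0.05, where 0% of all features passed and 5.93% had an unadjusted p under 0.05. Its small intestine minus colon difference of effects was -0.29 ± 0.09 (limma adjusted p = 0.6324), and without small intestine wild type 2 it was -0.37 (limma adjusted p = 0.04905). The leading Habp2 probe, which gave these values, was not above background on any colon array, so no colon effect was measured and this value restates the small intestine difference. The same holds for Mmp7. That of Lyz1 was -0.97 ± 0.84 (limma adjusted p = 0.9449), and -0.04 without colon mutant 2. That of Itln1 was -0.59 ± 0.55, of Ang4 0.36 ± 1.15, of Nupr1 0.26 ± 0.25, of Mmp7 -0.02 ± 0.07 and of Mptx1 0.00 ± 0.33.

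The genes whose levels ran most like each member over the 6 arrays of a tissue are given as a description, by Pearson's r among 9283 genes in small intestine and 8929 in colon. In small intestine the closest to Habp2 was Esam, an endothelial adhesion molecule, at 0.988, and the closest to Itln1 after Apmap at 0.993 was Cldn5, an endothelial claudin, at 0.992. The closest to Mptx1 was Olfml1 at 0.993, followed by Cd6, a surface glycoprotein of T cells, at 0.986. Nupr1 had Gm5796 at 0.994, Lyz1 had Fbxo34 at 0.977, Ang4 had Xxylt1 at 0.988 and Mmp7 had Emc4 at 0.99. In colon Lyz1 ran with C2, a complement component, at 0.999 and with Gpx3, a secreted glutathione peroxidase, at 0.994, and colon mutant 2 alone sets most of the range of Lyz1 there. Ang4 ran with Srp54a at 0.984, Itln1 with Gtf2h1 at 0.985, Mptx1 with Ccdc163 at 0.985 and Nupr1 with Pias4 at 0.992. With 6 arrays and so many genes, values of this size occur for every member, and the arrays share tissue makeup and normalization.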

How the data were processed

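The 12 Illumina mouse BeadChip arrays form 4 groups of 3. The authors deposited log2 intensities, quantile normalized over all arrays as the equal distributions of the columns show, with column medians of 7.756 to 7.757. The submitters' processing notes name limma with no version, and no source used here states a background correction. A second table has 24 columns whose names match no sample's labels, and these were not used.

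The dim-probe limit was 3 SD (0.0278, mirrored below the mode) above the mode of all values, 7.70, which gives 7.78. Probes above it on at least 3 arrays were kept, 22737 of 45281, and on a typical array 43.0% of probes were above it. The platform annotation gave 34885 probes 1 gene symbol, 18 several and 10378 none, and 34807 matched the RefSeq table by Entrez number. The probe with the highest mean stood for its gene, which left 12132 genes and 3777 unnamed probes, 15909 features.

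limma 3.58.1 in R 4.3.3 fitted a mean per group over all 12 arrays (8 residual degrees of freedom, prior 2.15), and the 5 contrasts were 2 of genotype, 2 of tissue and their difference. P-values were two-sided with Benjamini-Hochberg adjustment per contrast. The fit was tested on simulated data. With 3 arrays a group, an exact permutation test cannot go below 0.1, and the small number of arrays limits the precision. A fold for a gene dim in one group is a bound from the limma group means and the lowest signal counted as above background, or the dim probe's own where higher. Alignments of upstream sequence used Biopython 1.88.

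Named genes were all members, the genes most like each member in each tissue, up to 4 of each related list with the largest difference, and the close relatives above background. The members and lists were chosen with earlier results of these data known. Alternatives covered the dim-probe limit, the probe per gene, the variance prior, array weights, the arrays fitted, normalization, a replicate block and leaving out each array.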

Additional observations from a re-analysis of the deposited data

How the results depend on the processing

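The count of members that passed stayed the same under every other filter, probe choice, prior, weighting, normalization, set of arrays fitted and block tried, leaving out single arrays apart, and so did all calls of single members. Of the values of single members under these alternatives and under the one without the 3 small intestine arrays high in pancreatic acinar markers, which was added after seeing the data, 10 changed sign, and none of these passed the test. With the mean of a gene's probes, Lyz1 in small intestine was at -0.25, Habp2 in colon at -0.008 and the difference of the genotype effects of Mptx1 at -0.01. With array weights, that difference of Mmp7 was 0.006, and small intestine minus colon of Ang4 in wild types was -0.11. Without the 3 arrays high in pancreatic markers, Ang4 in small intestine was at -0.51, and the difference of the genotype effects was -0.39 for Ang4, 0.039 for Mmp7, -0.14 for Mptx1 and -0.04 for Nupr1. The cause was not tested.

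Leaving out each array in turn, mutant minus wild type in small intestine ran from -0.033 to 0.064 for Mmp7, from -0.22 to 0.51 for Ang4, from -0.175 to 0.022 for Nupr1 and from -0.33 to -0.17 for Habp2. In colon it ran from -1.13 to 0.40 for Ang4, from -0.26 to 0.55 for Itln1, from -0.40 to 0.10 for Mptx1 and from 0.19 to 1.71 for Lyz1. Small intestine minus colon of Ang4 in wild types ran from -0.83 to 0.71. The difference of the genotype effects ran from -0.057 to 0.039 for Mmp7, from -0.16 to 1.38 for Ang4, from -0.20 to 0.30 for Mptx1, from -0.37 to -0.21 for Habp2 and from -1.56 to -0.04 for Lyz1. The number of members called ran from 0 to 1 in small intestine between genotypes and for the difference of effects, was 0 throughout in colon between genotypes, and was 6 throughout between tissues in either genotype.

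Of all features, 108 passed in small intestine between genotypes, and this count was 57 with the replicate block, 179 with array weights, 3 on the 6 arrays of that tissue alone, 319 without the 3 arrays high in pancreatic markers and 0 to 149 when each array was left out. With the array number as a replicate block, no call of a member changed, and Habp2 in small intestine stayed at -0.24 (limma adjusted p = 0.2557). Deviations of arrays with the same number correlated at -0.042 to 0.162 between tissues of a genotype, at 0.0462 to 0.373 between genotypes in small intestine and at -0.208 to 0.137 in colon. Between genotypes in small intestine, arrays of unlike number correlated at -0.331 to 0.213. Of 12 arrays, 4 correlated best with their own number in the other tissue, and 6 with their own number in the other genotype. The numbers are thus not shown to pair tissues of a mouse. Whether they mark a shared step in small intestine was not tested. Signal over background limits Mmp7, Habp2 and Mptx1 in the tissue where each lies at or near the limit.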

Other observations

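Genes of type 2 immunity, to which Itln1, Ang4 and Retnlb respond in parasite-infected mouse gut, did not pass between genotypes. Of 9 measured genes, none passed with limma in small intestine (median 0.05) or in colon (median -0.01), and 2 in small intestine and 0 in colon had an unadjusted p under 0.05. Retnlb, the goblet cell resistin-like molecule, differed by 1.64 ± 0.45 between mutants and wild types in small intestine (limma adjusted p = 0.2241) and by -0.38 ± 0.45 in colon (limma adjusted p = 0.9832). Clca1, a secreted mucus-processing protein, differed by 0.58 ± 0.25 in small intestine (limma adjusted p = 0.5921). Itln1 and Ang4 gave -0.41 ± 0.39 and 0.24 ± 0.81 in the same comparison.

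Among markers of Brunner glands, the duodenal submucosal glands, Gkn3 fell in small intestine of mutants by 0.24 ± 0.04 (limma adjusted p = 0.04323), a size close to that of Habp2 at -0.24 ± 0.07. Pgc, pepsinogen C, differed by -0.16 ± 0.03 (limma adjusted p = 0.08181) and Tff2, a trefoil peptide, by 0.34 ± 0.54 (limma adjusted p = 0.9983). Whether gland content moved with Habp2 was not tested.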
